A study of Mus musculus with 6 samples.

Results

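The genes described here are 10 genes of the neutrophil lineage whose products are stored in granules or fill the cytosol of neutrophils: Mpo, Elane, Prtn3 and Ctsg of the primary granules, Ltf, Camp, Ngp and Lcn2 of the secondary granules, and S100a8 and S100a9. They were chosen by gene symbol, and all 10 were found among the 57010 genes of the count table and passed the filter on low counts. Libraries came from monocytes of the bone marrow of C57BL/6 mice (C57BL/6J in the methods) 1 year old, isolated with a magnetic kit that removes other marrow cells: 3 from the femur (S13, S15 and S18) and 3 from the mandible (S16, S19 and S23). The labels give no drug or genetic treatment, and the groups differ by skeletal site. The study included male and female mice, and the labels give neither the sex nor the animals of a library.

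Neutrophil granules are filled in the order in which a developing neutrophil makes their proteins. The primary, or azurophil, granule is made at the promyelocyte stage and holds myeloperoxidase and serine proteases. The secondary, or specific, granule is made later, at the myelocyte and metamyelocyte stages, and holds antimicrobial and metal-binding proteins. S100a8 and S100a9 encode the subunits of calprotectin, a calcium- and zinc-binding protein that makes up much of the cytosol of neutrophils and is also made by monocytes. Transcripts of the granule proteins are abundant in immature cells and scarce in mature circulating neutrophils. Primary granule transcripts are also found in granulocyte-monocyte progenitors and early monocyte precursors.

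The genes lie on chromosomes 2, 3, 9, 10, 11 and 14 of GRCm38, and several are neighbours (positions from GENCODE M21). Prtn3 (chr10:79874476-79883174, plus strand) ends 3073 bases before Elane (chr10:79886247-79888215, plus strand). S100a8 (chr3:90668978-90670035, plus strand) and S100a9 (chr3:90692632-90695721, minus strand) are 22.6 kb apart. Camp (chr9:109847379-109849617, minus strand) and Ngp (chr9:110419747-110423012, plus strand), which encode related proteins of the cathelicidin family, are 570 kb apart, and Ltf (chr9:111019271-111042767, plus strand) lies 596 kb beyond Ngp. Mpo (chr11:87793581-87804413, plus strand), Ctsg (chr14:56099881-56102574, minus strand) and Lcn2 (chr2:32384633-32388252, minus strand) have no other member nearby. An antisense gene, Gm11505, overlaps Mpo, and Plppr3 overlaps Prtn3 on the opposite strand. Whether the strand of the reads was used in counting is not given in the sources used here. Reads from the bases that these genes share therefore cannot be told apart.

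The 250 bases before the RefSeq start of transcription (GRCm38.p6, given 5′ to 3′ on the strand of the gene) are shown for these 3 pairs, since the members of a pair are neighbours or relatives and their levels are set side by side in what follows. Capitals mark matches to TTNNGNAA, a form of the site of C/EBP factors, and to GAGGAA, the core of the site of PU.1, on either strand. No match of one motif overlapped a match of the other.
Prtn3: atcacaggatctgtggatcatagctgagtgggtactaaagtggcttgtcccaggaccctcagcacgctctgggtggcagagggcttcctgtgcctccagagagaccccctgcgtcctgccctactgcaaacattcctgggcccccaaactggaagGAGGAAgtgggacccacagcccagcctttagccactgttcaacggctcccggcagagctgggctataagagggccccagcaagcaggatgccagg
Elane: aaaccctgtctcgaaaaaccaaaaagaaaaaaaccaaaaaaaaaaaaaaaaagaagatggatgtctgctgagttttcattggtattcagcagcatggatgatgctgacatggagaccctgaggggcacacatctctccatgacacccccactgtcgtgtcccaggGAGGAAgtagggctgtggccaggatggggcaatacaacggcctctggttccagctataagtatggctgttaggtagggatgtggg
Camp: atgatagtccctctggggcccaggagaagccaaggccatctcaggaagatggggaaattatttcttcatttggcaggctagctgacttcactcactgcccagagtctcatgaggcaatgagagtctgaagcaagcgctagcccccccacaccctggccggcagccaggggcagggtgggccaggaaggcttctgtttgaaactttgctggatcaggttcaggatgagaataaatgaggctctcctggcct
Ngp: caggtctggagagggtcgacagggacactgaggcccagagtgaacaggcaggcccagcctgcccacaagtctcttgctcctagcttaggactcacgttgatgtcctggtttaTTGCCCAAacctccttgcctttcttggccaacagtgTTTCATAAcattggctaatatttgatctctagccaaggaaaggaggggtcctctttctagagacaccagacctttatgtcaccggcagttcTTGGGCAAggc
S100a8: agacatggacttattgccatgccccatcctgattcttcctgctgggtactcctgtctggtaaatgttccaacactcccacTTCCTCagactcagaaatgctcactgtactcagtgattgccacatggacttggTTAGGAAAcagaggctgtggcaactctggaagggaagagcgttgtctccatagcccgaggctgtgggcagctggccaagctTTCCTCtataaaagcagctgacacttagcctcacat
S100a9: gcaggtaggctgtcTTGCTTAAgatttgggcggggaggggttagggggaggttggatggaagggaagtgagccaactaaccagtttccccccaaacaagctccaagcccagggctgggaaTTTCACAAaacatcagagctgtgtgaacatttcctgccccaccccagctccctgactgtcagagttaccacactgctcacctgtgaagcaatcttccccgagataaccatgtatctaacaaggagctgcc
These windows are chr10:79879417-79879666 (Prtn3), chr10:79886062-79886311 (Elane), chr9:109849457-109849706 (Camp), chr9:110419558-110419807 (Ngp), chr3:90668821-90669070 (S100a8) and chr3:90695722-90695971 (S100a9). Except for S100a9, the RefSeq starts of these genes differ from the M21 starts given above. The Prtn3 window lies wholly inside its M21 interval, and those of Elane, Camp, Ngp and S100a8 run into theirs. TTNNGNAA was found in 5 of the 10 windows, those of Ltf, Ngp, Lcn2, S100a8 and S100a9, and in 36.8% of 32851 windows of the same length in the table of promoters. GAGGAA was found in 7 of the 10 windows, those of the 4 primary granule genes, Ltf, Lcn2 and S100a8, and in 23.3% of all windows. Neither was found in the window of Camp, while Ngp held 3 matches to TTNNGNAA, at -138, -102 and -11 counted from the start. TATAAA, searched on the given strand alone, was found at -30 in S100a8 and in no other member, and in 7.59% of all windows. Its letters overlap no match of the other motifs. A match is a description of the letters and not a measured binding site.

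The libraries held 15718782 to 25371474 counts, and a count of 0, which allows up to 3 counts, corresponds to 0.118 to 0.191 counts per 1000000 (CPM) by counting error alone. A member's count in a library was between 1289 and 256187, so depth did not limit their detection. In edgeR's quasi-likelihood test, 938 of 18114 tested genes (5.18%) passed an adjusted p under 0.05 (Benjamini-Hochberg) with at least a 2-fold change. Of these, 236 were lower in the mandible (1.3% of tested genes) and 702 were higher (3.88%), that is, 74.8% of the calls were higher, against 85.2% (340 higher and 59 lower) when libraries were scaled to 15 pan-leukocyte genes. The median log2 fold change, mandible over femur, of all tested genes was -0.04. P-values measure the spread between these libraries. The labels do not say that the libraries came from separate animals, so part of this spread may be technical.

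Some libraries stood apart from the others of their group. Femur S15 had between 0.105 and 0.333 times the mean CPM of the other femur libraries in each of the 10 members. Mandible S23 held 25189 counts of Xist, which female cells transcribe from their silenced X chromosome, and the other 5 libraries held at most 12. The only library with a high Xist count was thus in the mandible group, and the part of sex in the results was not tested. S23 had the lowest level of its group in 9 of the 10 members, all but S100a8. The monocyte markers Ly6c2 (182 to 474 CPM) and Csf1r (157 to 450 CPM), chosen for this check after their values were seen, and Ccr2 (369 to 849 CPM) were present in every library. Markers of other cells were present too. The summed level of 9 eosinophil genes was 806 to 5966 CPM in the femur libraries and 371 to 920 CPM in the mandible, and 17 genes of mesenchymal cells and osteoblasts summed to 389 to 503 CPM in the femur libraries and 9667 to 16356 CPM in the mandible. A summed level of 9 genes of dental epithelium was 1.27 to 4.42 CPM in the femur libraries and 5772 to 11317 CPM in the mandible. Of 13 tested genes of megakaryocytes and platelets 12 fell, against 1.3% of all tested genes, with a median of -3.16. Of 14 erythroid genes 4 fell (median -2.25), and without S15 10 did, against 3.24% of all tested genes in that fit. Their summed level was 2529 CPM in femur S13 and 211 to 516 CPM in the other 5 libraries. The part of these cells in the results on the granule genes and on the other lists was not tested.

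All levels that follow are CPM after scaling by TMM, the trimmed mean of M values of edgeR, given in the order S13, S15, S18 for the femur and S16, S19, S23 for the mandible. In all 10 genes the mean of the mandible libraries was below that of the femur libraries, but in 9 of the 10 the groups overlapped, with femur S15 among the mandible libraries or below them, and in Ltf mandible S19 also lay above femur S18; the fitted value of Ltf turned positive with limma-voom and without S13 or S23. S100a8 passed the test, 1 of 10 genes against 1.3% of all genes lower in the mandible, and it was the only member in which every mandible library lay below every femur library, against 11.5% of all tested genes. At an unadjusted p under 0.05, 6 of the 10 were lower (Elane, Prtn3, Ctsg, Camp, S100a8 and S100a9), against 16.4% of all tested genes in either direction. In bulk libraries, fewer cells that make these transcripts and less transcript per cell cannot be told apart. The 10 genes made up 1.92 ± 1.35% of all counts in the femur and 0.774 ± 0.341% in the mandible (SD, n = 3), with overlapping ranges of 0.444 to 3.08% and 0.463 to 1.14%.

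**Figure D1:**
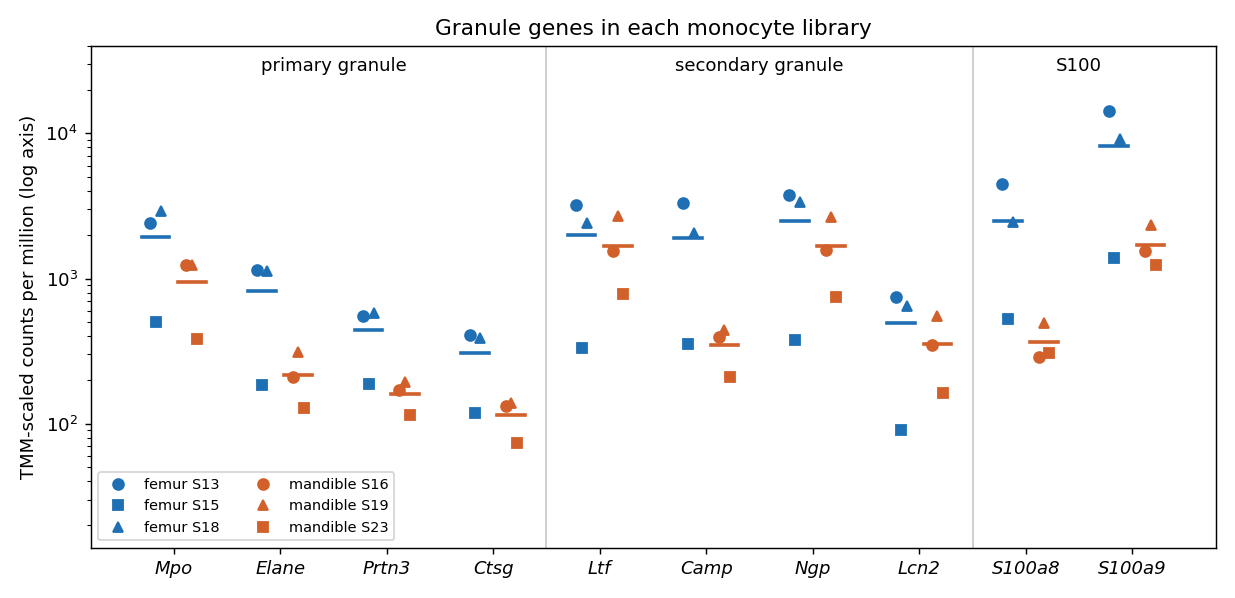
TMM-scaled CPM (log axis) of the 10 granule genes in each of the 6 libraries, with the mean of each group as a bar; femur libraries are blue and mandible libraries orange. Femur S15 (blue square) lies far below the other femur libraries in every gene, and S100a8 is the gene in which the groups do not overlap.

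Mpo encodes myeloperoxidase, the heme enzyme that makes hypochlorous acid. Its level was 2397, 499.7 and 2897 CPM in the femur libraries and 1237, 1239 and 384 CPM in the mandible libraries. Femur S15 lay below the mandible libraries S16 and S19, so the groups overlapped. The log2 fold change was -1.02 (SE 0.61, adjusted p = 0.49, edgeR), and a two-sided exact permutation of the 6 libraries, whose smallest possible p is 0.1, gave p = 0.5.

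Elane, Prtn3 and Ctsg encode the serine proteases of the primary granule: neutrophil elastase, proteinase 3 and cathepsin G. Elane was at 1140, 185 and 1120 CPM in the femur libraries and at 209, 314 and 128 CPM in the mandible, a log2 fold change of -1.91 (SE 0.59, adjusted p = 0.10, exact permutation p = 0.3). Prtn3 was at 553, 189 and 583 CPM in the femur libraries and at 170, 195 and 115 CPM in the mandible, a log2 fold change of -1.47 (SE 0.42, adjusted p = 0.073, exact permutation p = 0.2). Femur S13 and S18 lay well above the mandible in both genes, and S15 lay inside the range of the mandible libraries. Ctsg was at 408, 118.5 and 392 CPM in the femur libraries and at 132, 139 and 73.7 CPM in the mandible, a log2 fold change of -1.41 (SE 0.44, adjusted p = 0.11, exact permutation p = 0.3). None of these 3 protease genes passed the adjusted threshold of edgeR or limma-voom with all 6 libraries under the filter used here, and all 3 had an unadjusted p under 0.05. DESeq2 called all 3 lower, as did edgeR with every gene with a count tested, and edgeR called Elane and Prtn3 lower when genes needed at least 10 counts in every library. The ratio of Elane to Mpo counts within a library was 0.476, 0.370 and 0.386 in the femur and 0.169, 0.253 and 0.334 in the mandible, without overlap. The ratios of Prtn3 and of Ctsg to Mpo overlapped between the groups. Elane (984 bases) is shorter than Mpo (3424 bases). With the trend of level on gene length removed, as described below, their log2 fold changes were -1.31 and -1.18. These ratios have no test, and the share of all gene pairs without overlap was not computed. Prtn3 and Ctsg ran closest together of the 4 genes, with a root mean square distance of 0.11 between their log2 levels over the 6 libraries after each gene was centred on its mean. Prtn3 and Elane, which are neighbours, were 0.40 apart on the same measure.

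The secondary granule genes showed 2 patterns. Ltf (lactoferrin, an iron-binding protein), Ngp (neutrophilic granule protein) and Lcn2 (lipocalin 2, which binds bacterial siderophores) had the fold changes nearest to 0 of all members. Ltf was at 3207, 332 and 2412 CPM in the femur libraries and at 1539, 2698 and 787 CPM in the mandible, and Ngp was at 3768, 375 and 3353 CPM in the femur libraries and at 1574, 2671 and 752 CPM in the mandible. Lcn2 was at 742, 90.6 and 644 CPM in the femur libraries and at 348, 556 and 162 CPM in the mandible. In all 3 genes femur S15 was the lowest of the 6 libraries and mandible S19 came close to or above femur S18. The log2 fold changes were -0.24 (SE 0.68, adjusted p = 0.93) for Ltf, -0.58 (SE 0.70, adjusted p = 0.79) for Ngp and -0.47 (SE 0.64, adjusted p = 0.82) for Lcn2, with exact permutation p of 0.9, 0.8 and 0.8.

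Camp, which encodes the precursor of the antimicrobial peptide CRAMP, was at 3298, 356 and 2057 CPM in the femur libraries and at 395, 444 and 209 CPM in the mandible. Femur S13 and S18 lay above all mandible libraries by far, and S15 lay between the mandible libraries S16 and S23. The log2 fold change was -2.45 (SE 0.65, adjusted p = 0.057, exact permutation p = 0.3), and DESeq2 called it lower. A ratio of 2 genes within a library does not depend on how the library is scaled. It does depend on any trend of level on gene length where the 2 genes differ in length. Camp has 758 bases of exon, Ngp 1222, Lcn2 2623 and Ltf 3450. The ratio of Camp to Ltf counts was 1.03, 1.07 and 0.853 in the femur and 0.256, 0.165 and 0.266 in the mandible, and that of Camp to Ngp was 0.875, 0.951 and 0.613 in the femur and 0.251, 0.166 and 0.279 in the mandible. Neither ratio overlapped between the groups, and in both femur S15 had the highest value, so S15, low in each of these genes, lay with the femur libraries in their ratios. The ratio of Ngp to Ltf spanned a narrower range, at 1.17, 1.13 and 1.39 in the femur and 1.02, 0.990 and 0.955 in the mandible, and that of Lcn2 to Ltf was 0.231, 0.273 and 0.267 against 0.226, 0.206 and 0.206. These ratios, too, did not overlap between the groups and were lower in the mandible. With the trend on length removed, as described below, the log2 fold change of Ngp (-0.16) was above that of Ltf (-0.47). That of Lcn2 was -0.52 and that of Camp -1.62. These ratios were chosen after their genes' levels were seen and have no test. The share of all gene pairs whose ratio does not overlap was not computed.

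S100a8 was at 4444, 527 and 2466 CPM in the femur libraries and at 290, 495 and 309 CPM in the mandible. The lowest femur library, S15, lay just above the highest mandible library, S19. S100a8 fell by 2.77 on the log2 scale (SE 0.64, adjusted p = 0.028), 6.81-fold, with an exact permutation p of 0.1, the smallest that 3 against 3 libraries allow. S100a9 was the most abundant member, at 14150, 1378 and 9165 CPM in the femur libraries and at 1541, 2320 and 1244 CPM in the mandible. Femur S15 lay between mandible S23 and S16, and the log2 fold change was -2.27 (SE 0.70, adjusted p = 0.099, exact permutation p = 0.3), with a call of lower in DESeq2. The subunits did not keep a fixed proportion: S100a9 had 3.18, 2.61 and 3.72 times the counts of S100a8 in the femur and 5.32, 4.69 and 4.03 times in the mandible, without overlap. The ratio of S100a8 to Ltf counts was 1.39, 1.59 and 1.02 in the femur and 0.188, 0.183 and 0.392 in the mandible, also without overlap. S100a8 (694 bases) is shorter than Ltf (3450 bases). Like the other ratios of gene pairs, these have no test and no share of all pairs to be read against.

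**Figure D2:**
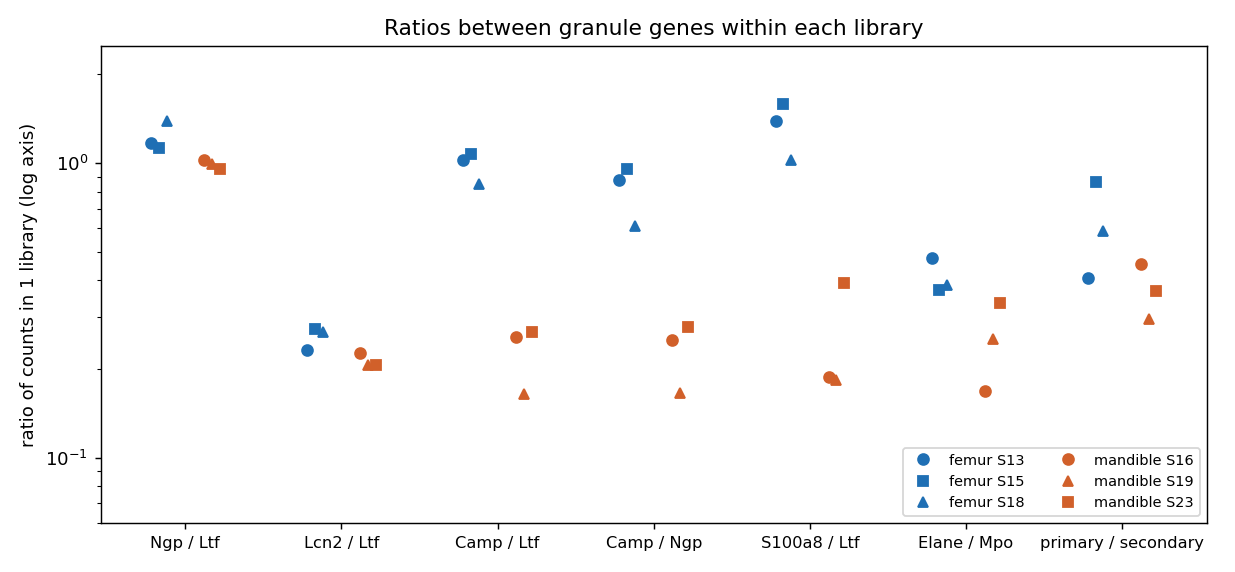
Ratios of counts between granule genes within each library (log axis; femur blue, mandible orange; each point is 1 library). The ratios of Ngp, Lcn2, Camp and S100a8 to Ltf are all lower in every mandible library than in every femur library, S15 included. From lowest to highest of the 6 libraries they span 1.46-fold for Ngp, 1.33-fold for Lcn2, 6.52-fold for Camp and 8.66-fold for S100a8. The genes differ in length, and the ratios are not corrected for the trend of fold change on length.

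Summed over the 4 genes of each kind, primary over secondary granule transcripts gave log2 ratios of -1.29, -0.22 and -0.76 in the femur and -1.14, -1.76 and -1.45 in the mandible. The groups overlapped, since femur S13 lay below mandible S16, and the means differed by -0.69, with a pooled SD of the libraries of 0.44. Without S15 the difference was -0.42, and it was -1.06 with Mpo, -1.03 with Camp and -0.42 with Ltf left out of the sums. The log2 ratio of S100 to secondary granule transcripts was 0.76, 0.72 and 0.46 in the femur and -1.07, -1.18 and -0.30 in the mandible, without overlap. This ratio has no test either, and how often ratios of other genes do not overlap was not computed. Across the 6 libraries, Camp was nearer to S100a9 (root mean square distance of centred log2 levels 0.22), Elane (0.32) and S100a8 (0.35) than to the other secondary granule genes (1.09 to Ltf, 0.96 to Ngp and 0.96 to Lcn2). Ltf, Ngp and Lcn2 were within 0.18 of each other.

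Levels of different genes can be compared per length only. As the mean of 6 libraries in TMM-scaled CPM per kb of exon, the order was S100a9 (9514), S100a8 (2048), Ngp (1704), Camp (1486), Ltf (530), Elane (524), Mpo (421), Ctsg (204), Prtn3 (174) and Lcn2 (162). S100a9 was above S100a8, Mpo above Ctsg and Ctsg above Prtn3 in 6 of 6 libraries. The other neighbours in the order changed places between libraries: S100a8 was above Ngp in 3 of 6 libraries, Ngp above Camp in 4, Camp above Ltf in 5, Ltf above Elane in 3, Elane above Mpo in 4 and Prtn3 above Lcn2 in 4.

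The calls depended on femur S15. S15 was the lowest femur library in all 10 members, so leaving it out raises the femur mean and lowers the spread in these genes. Calls made without S15 are therefore no independent support, here or in other genes that were low in S15. Without S15, 6 of the 10 genes fell (Elane, Prtn3, Ctsg, Camp, S100a8 and S100a9), against 3.24% of 18742 tested genes lower in the mandible in the same fit. Their log2 fold changes were then -2.43 for Elane, -1.87 for Prtn3, -1.85 for Ctsg, -2.98 for Camp, -3.29 for S100a8 and -2.82 for S100a9, with adjusted p-values of 0.00048 for S100a8 and of 0.00084 to 0.0031 for the other 5 (edgeR). Mpo, Ltf, Ngp and Lcn2 did not pass without S15. With all 6 libraries, DESeq2 called the same 6 genes lower, against 551 (1.3%) of the 42225 genes with a count. So did edgeR with every gene with a count tested (571 genes, 1.35%). Those 42225 include the low-count genes that the main filter removed, so these shares cannot be set beside shares of the 18114 filtered genes. With genes of at least 10 counts in every library edgeR called 4 (Elane, Prtn3, Camp and S100a8, against 2.32% of 12919 genes), and limma-voom called 1, S100a8 (1.36% of 18114 genes). Leaving out any other library ended the call of S100a8, whose log2 fold change was -2.04 (adjusted p = 0.119) without S13, -2.77 (0.0733) without S18, -2.63 (0.126) without S16, -3.10 (0.105) without S19 and -2.71 (0.115) without S23.

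**Figure D3:**
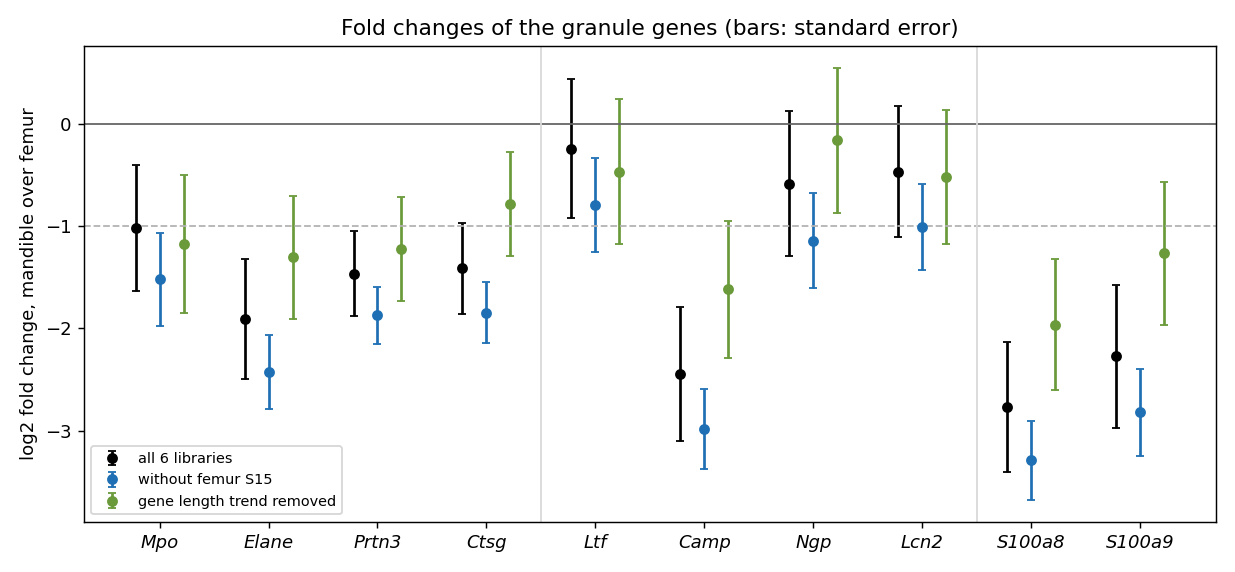
Log2 fold change, mandible over femur, of the 10 granule genes with its standard error (edgeR), with all 6 libraries (black), without femur S15 (blue) and after removing each library's trend of level on gene length (green); the dashed line marks a 2-fold lower level. Without S15, the lowest femur library in all 10 genes, all 10 values are lower. With the length trend removed S100a8 is at -1.96 and Camp at -1.62.

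Gene length moved with the fold change. Among all tested genes, the 10% with the shortest exons (up to 787 bases) had a median log2 fold change of -0.65 and the 10% with the longest had 0.23, and 96 of the shortest 10% were called lower in the mandible and 4 of the longest. S100a9 (522 bases), S100a8 (694 bases) and Camp (758 bases) are among the shortest 10% and had the lowest fold changes of the members. Elane (984 bases), Ctsg (1033 bases), Ngp (1222 bases) and Prtn3 (1732 bases) are longer, and Lcn2 (2623 bases), Mpo (3424 bases) and Ltf (3450 bases) are the longest. Ngp, of similar length to Ctsg and Elane, had a fold change nearer to 0 than these. The part of gene length in the fold changes of the members was not tested. When each library's trend on length was removed, which moved the median of all genes to -0.17, no member passed: S100a8 was at -1.96 (adjusted p = 0.107), Camp at -1.62, Elane at -1.31, S100a9 at -1.27, Prtn3 at -1.22, Mpo at -1.18, Ctsg at -0.78, Lcn2 at -0.52, Ltf at -0.47 and Ngp at -0.16.

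**Figure D4:**
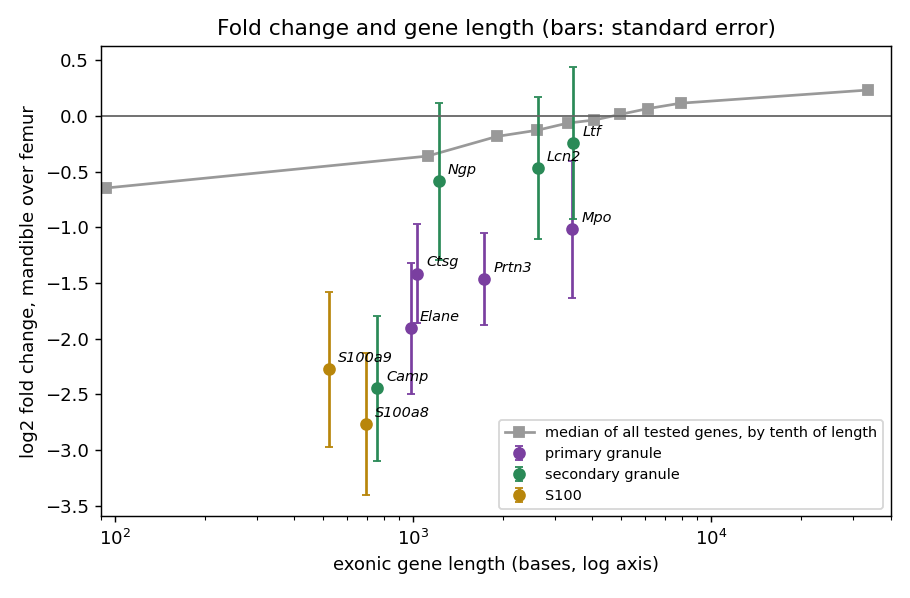
Log2 fold change, mandible over femur, with its standard error against exonic length (bases, log axis) for the 10 granule genes, coloured by granule, and the median of all tested genes in 10 bins of equal gene number by length (grey squares, at the geometric mean of the shortest and longest gene of the bin). The 3 shortest members, S100a9, S100a8 and Camp, are the lowest, and all 10 members lie below the grey line of medians.

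The other genes of granules and of neutrophil development were read from lists chosen by their known roles. Of 10 tested other primary granule genes none passed the test (median log2 fold change -0.36), nor did any of 13 other secondary granule genes (median -0.30) or 12 genes of tertiary granules and secretory vesicles (median -0.46). At an unadjusted p under 0.05, edgeR gave 3, 2 and 1 genes of these lists, against 16.4% of all tested genes in either direction. DESeq2 called 3 other primary granule genes lower (Cd63, Serpinb1a and Srgn) and none of the other 2 lists, and limma-voom called none of the 3. Lyz2, which encodes lysozyme and is also abundant in monocytes, was at 4630 to 10579 CPM in the femur libraries and 4620 to 7816 CPM in the mandible (log2 fold change -0.32, adjusted p = 0.84). Chil3, which encodes a chitinase-like protein, was at 1263, 378 and 1297 CPM in the femur libraries and 407, 761 and 390 CPM in the mandible (-0.91, adjusted p = 0.38). Mmp9, a gelatinase of tertiary granules, was at 288, 23.1 and 52.5 CPM in the femur libraries and 135, 163 and 91.6 CPM in the mandible (0.10, adjusted p = 0.97), so the groups overlapped. Without S15, 4 other primary granule genes (Cd63, Nkg7, Serpinb1a and Srgn) and 4 other secondary granule genes (Anxa1, Chil3, Cyba and Olfm4) fell, and none of the tertiary list. In that fit 3.24% of all tested genes were called lower in the mandible. The genes that fell without S15 were named after their values were seen.

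Of 17 tested genes of late neutrophils, 2 fell and none rose (median -0.82). Of all tested genes, 1.3% were called lower in the mandible and 3.88% higher. Trem3, a receptor of the TREM family, fell by 1.90 on the log2 scale (adjusted p = 0.034), and Slpi, an inhibitor of neutrophil elastase, fell by 1.18 (adjusted p = 0.049). Their summed level was 1796, 542 and 1065 CPM in the femur libraries and 599, 613 and 593 CPM in the mandible libraries, with S15 below all mandible libraries. Ly6g, the surface marker of mouse neutrophils, added after its values were seen, was at 25.9, 2.03 and 14.6 CPM in the femur libraries and 4.85, 16.5 and 6.75 CPM in the mandible (log2 fold change -0.60, adjusted p = 0.80), and Stfa1 and Stfa2 did not pass the filter on low counts. Of 18 genes of granulocyte-monocyte progenitors, Ms4a3 (fell by 2.41, adjusted p = 0.029) and Plac8 (fell by 1.43, adjusted p = 0.039) were called lower and Sox4, a transcription factor, rose by 1.75 (adjusted p = 0.012), with a median of -0.65. Of 22 genes of proliferation 1 fell, Cdk1, by 1.20 (adjusted p = 0.030), while Mki67 was between 1047 and 1470 CPM in all 6 libraries (-0.07, adjusted p = 0.96). Without S15, the genes called lower numbered 6 of 18 in the late neutrophil list, 8 of 18 in the progenitor list and 5 of 22 in the proliferation list. The share of all tested genes called lower in that fit was 3.24%.

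Of 17 transcription factors of granulocytes, edgeR called 1 higher and none lower (median -0.17), against 3.88% and 1.3% of all tested genes. DESeq2 also called Gfi1b lower, and without S15 edgeR called Cebpe and Myb lower (these 3 were named after their values were seen). Lef1 rose by 2.39 on the log2 scale (adjusted p = 0.028), from 8.95, 2.95 and 4.42 CPM in the femur to 18.3, 18.04 and 48.9 CPM in the mandible. Spi1, which encodes PU.1, was at 181, 147 and 222 CPM in the femur libraries and 195, 192 and 103 CPM in the mandible (-0.17, adjusted p = 0.88), and Cebpb was at 124, 226 and 188 CPM in the femur libraries and 243, 258 and 193 CPM in the mandible (0.36, adjusted p = 0.65). Neither differed beyond the spread of the libraries. Cebpe, the factor required for secondary granules, was added after its values were seen. It was at 129, 17.0 and 85.1 CPM in the femur libraries and 33.7, 35.8 and 7.15 CPM in the mandible (-1.59, adjusted p = 0.26), with S15 low among the femur libraries, and fell without S15 (by 2.11, adjusted p = 0.029).

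Of 8 tested other S100 genes, S100a6 fell by 1.12 (adjusted p = 0.028) and S100a16 rose by 4.10 (adjusted p = 0.026), with a median of -1.04. The shares of all tested genes were 1.3% called lower and 3.88% called higher. S100a6 was at 275, 206 and 264 CPM in the femur libraries and 107, 130 and 105 CPM in the mandible, and S15 was here only slightly below the other femur libraries. S100a16 was low throughout, at 0.497, 0.415 and 0.133 CPM in the femur libraries and 5.65, 3.99 and 8.47 CPM in the mandible. Among 11 receptors and partners of calprotectin, Ncf4, a cytosolic subunit of the phagocyte NADPH oxidase, fell by 1.05 (adjusted p = 0.034), from 228 to 233 CPM in the femur to 94.6 to 131 CPM in the mandible. The membrane subunit Cybb (0.25, adjusted p = 0.88) and the cytosolic subunit Ncf1 (-0.49, adjusted p = 0.55) did not pass the test. In the fits that left out 1 library, the calls of Trem3, Slpi, S100a6, Ncf4, Ms4a3, Plac8 and Cdk1 held only without femur S15, and the adjusted p-values of these and of 2 further genes, Nr4a1 and Ear2, were 0.060 to 0.26 without any of the others. The call of Sox4 was lost without S18, S19 or S23 (adjusted p 0.0501 to 0.060), that of Lef1 without the same 3 libraries (0.066 to 0.15) and that of S100a16 without S13, S18, S19 or S23 (0.077 to 0.12). Limma-voom did not call Slpi or S100a16. With the length trend removed, S100a16 and Ms4a3 still passed, and the adjusted p-values of Trem3, Slpi, S100a6, Ncf4, Plac8, Cdk1, Nr4a1, Ear2, Sox4 and Lef1 were 0.053 to 0.42.

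Genes of eosinophils, another granulocyte of the marrow, were low in S15 too. Of 9 eosinophil genes 4 fell, Ear6 by 3.09 (adjusted p = 0.020), Prg2, the major basic protein, by 3.004 (adjusted p = 0.031), Prg3 by 2.96 (adjusted p = 0.016) and Ear1, and none rose (median -2.33). In the same fit 1.3% of all tested genes were called lower in the mandible. Prg2 was at 4098, 543 and 4194 CPM in the femur libraries and 241, 242 and 618 CPM in the mandible. These 4 calls were lost without S13, S18, S16 or S19 (adjusted p 0.053 to 0.17), and those of Prg2 and Ear1 also with the length trend removed (0.089 and 0.063). Of 24 monocyte genes, Nr4a1 rose by 1.25 (adjusted p = 0.047) and Ear2 fell by 2.17 (adjusted p = 0.049), with a median of 0.26. The summed level of the monocyte list was 4873, 7492 and 8533 CPM in the femur libraries and 11503, 10802 and 6665 CPM in the mandible, so that S15, low in granule genes, was between the other femur libraries in monocyte genes. The summed level of the 15 pan-leukocyte genes was 4613 to 7918 CPM, with S15 and S23 lowest in their groups and no gene called by edgeR, DESeq2 or limma-voom (1 gene at an unadjusted p under 0.05, median -0.15).

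**Figure D5:**
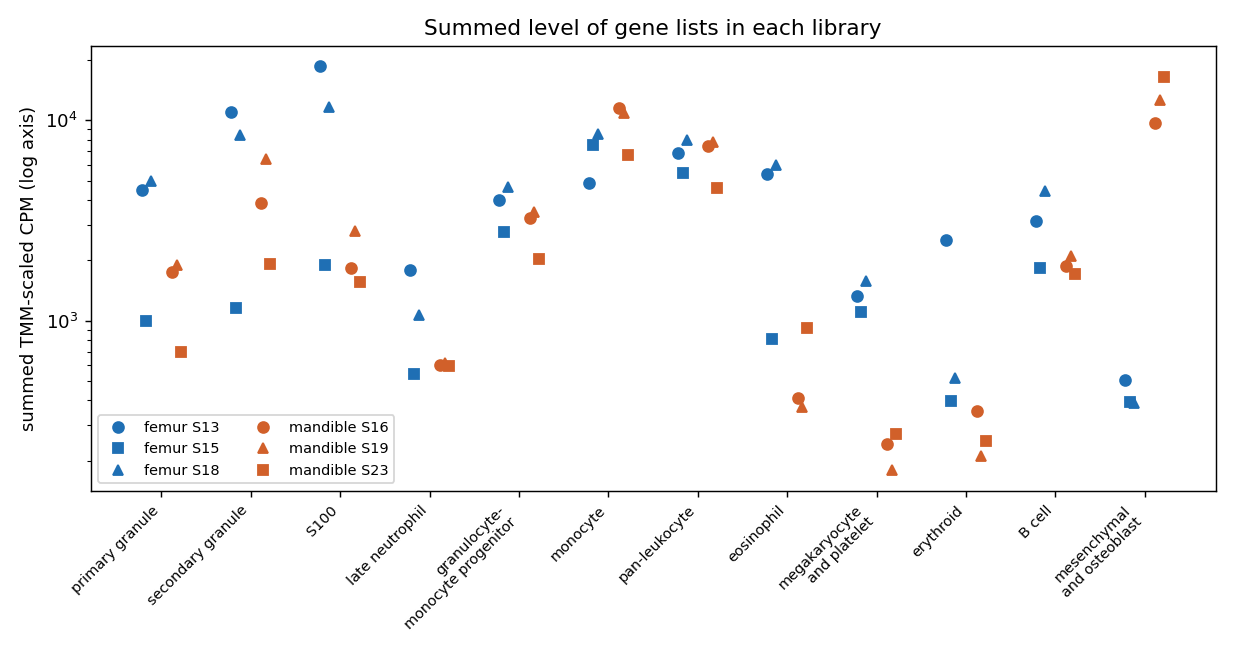
Summed TMM-scaled CPM (log axis) of the member genes of each kind and of marker gene lists in each of the 6 libraries (femur blue, mandible orange; each point is 1 library). The granule genes and the eosinophil list are low in femur S15, whereas the megakaryocyte and mesenchymal lists separate the femur from the mandible with S15 on the femur side.

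Genes outside the members whose levels over the 6 libraries ran most like them were found among 9500 genes with a mean of at least 10 CPM, by the root mean square distance of centred log2 levels. For the primary granule genes these were Serpinb1a, an inhibitor of neutrophil serine proteases (distance 0.117), Gm7931 (0.188), Fcnb, a ficolin (0.224), Prom1 (0.233) and Gm34680 (0.254). For the secondary granule genes they were Pglyrp1, a peptidoglycan recognition protein of secondary granules (0.169), Itgb2l, an integrin subunit (0.264), 4930438A08Rik (0.271), Orm1, an acute phase protein (0.275), and Chil1, a chitinase-like protein (0.301). For S100a8 and S100a9 they were Ms4a3 (0.255), Wfdc21 (0.364), Hmgn2-ps (0.395), Trem3 (0.403) and Prss57, a serine protease of neutrophils (0.406). Of these 15 genes, Ms4a3 and Trem3 passed the test between the sites, against 5.18% of all tested genes. The 15 genes were picked by their likeness to the members in these same libraries, so their calls are no independent support.

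Within 25 kb of the members, 19 annotated protein-coding genes were found, 14 of which were tested. Nme6, which encodes a nucleoside diphosphate kinase and lies 4263 bases from Camp, was the 1 gene called. It was at a mean of 11.2 CPM in the femur libraries and 1.33 CPM in the mandible and fell by 3.06 on the log2 scale (SE 0.69, adjusted p = 0.026). The call was lost without S13, S18, S16 or S23 (adjusted p 0.069 to 0.20). Plppr3, which overlaps Prtn3, had a log2 value of -0.94 (adjusted p = 0.36), Tspoap1 beside Mpo of -0.72 (adjusted p = 0.59) and Mcpt8, a basophil protease gene near Ctsg, of -0.80 (adjusted p = 0.57). Ciz1, beside Lcn2, and Klhl18, beside Ngp, had values of -0.06 and -0.05.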

How the data were processed

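Monocytes of femur and mandible marrow were sequenced in 6 libraries. The deposited values are raw counts per gene and library, which the authors obtained with featureCounts after trimming (Trimmomatic 0.33) and alignment to GRCm38 (HISAT2 2.1.0), with no normalization. The handling of strand and of reads with several positions is not given in the sources used here. Intervals in the table lay inside the gene of GENCODE M21 for 3016 of 52029 shared genes and for 0 of the 10 members. Positions, overlaps and neighbours therefore come from M21, matched on Ensembl identifiers. They may differ from the annotation used in counting. Gene lengths are those of the count table. RefSeq promoters were matched by symbol for all 10 members.

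The main test was edgeR's quasi-likelihood test (version 4.0.16, R 4.3.3; TMM, no covariates) on the 18114 genes that filterByExpr kept at a minimum count of 10. A call needed an adjusted p (Benjamini-Hochberg) under 0.05 and a change of at least 2-fold from the femur. Alternatives were DESeq2 1.42.0, limma-voom 3.58.1, other scalings, filters and thresholds, a loess correction on gene length (span 0.4), and each library left out. Distances used log2 CPM with a pseudocount of 0.5. The tests were tried on simulated data.

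The members and the lists were chosen with earlier results of these data known. Named were the members, the 5 nearest genes of each kind and neighbours within 25 kb. In lists that the text discusses, up to 3 of the most abundant genes and up to 3 called genes, those of largest change, were named. Other genes are said to be chosen after their values were seen. The rule also names 1 gene that is not reported here.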

Additional observations from a re-analysis of the deposited data

How the results depend on the processing

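The number of granule genes called, 1 of 10, was 6 with DESeq2 and with every gene with a count tested (Elane, Prtn3, Ctsg, Camp, S100a8 and S100a9 in both), 4 with genes of at least 10 counts in every library, and 0 with scaling to the pan-leukocyte genes, with the length trend removed and at an adjusted p under 0.01. Of all genes, DESeq2 called 1.3% of 42225 with a count lower, edgeR with every gene with a count tested 1.35%, and edgeR with at least 10 counts in every library 2.32% of 12919. The number of granule genes called was 0 to 6 when 1 library was left out, with 6 only without femur S15, the lowest femur library in all 10 genes. It stayed at 1 with limma-voom, no normalization factors, RLE factors, TMM with 18S, immunoglobulin, hemoglobin and mitochondrial genes left out, no fold threshold and, chosen after seeing the data, library totals taken before the filter. The number of called genes, 938, was 1758 with DESeq2, 399 with pan-leukocyte scaling, 1590 with every gene tested, 445 at an adjusted p under 0.01 and 434 to 1565 when 1 library was left out. The number of called genes in the other lists, 58, was 28, 95 and 31 with pan-leukocyte scaling, every gene tested and an adjusted p under 0.01, and 29 to 98 when 1 library was left out. The cause of these shifts was not tested. The log2 fold change of Ltf, -0.24, turned to 0.10 with limma-voom, 0.29 without femur S13 and 0.04 without mandible S23, and its range with 1 library left out was -0.82 to 0.29. Of 100 values of single members under other processing, 84 kept their direction and their side of the threshold, 13 newly passed, 2 no longer passed and 1 turned. The difference of the log2 primary over secondary ratio, -0.69, stayed below 0 and ranged from -0.96 to -0.42 with 1 library left out, and from -1.06 (without Mpo) to -0.42 (without Ltf) with 1 gene left out of the sums. No paired analysis was possible because the femur and mandible libraries share no replicate number. Depth did not limit the members, and 3 libraries per site limit every test.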
